A study of Mus musculus with 8 samples.

Results

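The genes of homologous recombination, the Fanconi pathway and break repair were read in granulocyte-macrophage progenitors (GMP), from which the marrow makes its neutrophils and monocytes, sorted as lineage-negative cells with CD16/32 and CD34 on their surface. A list of 31 such genes was taken, all of which were among the 23131 genes of the deposited table. RNA sequencing had been done on GMP of 4 knockout mice (RH2hKO), which were C57BL/6 with floxed Rnaseh2b (Rnaseh2bfl/fl) and VavCre+, and of 4 control littermates (RH2hWT), which were C57BL/6 with the same floxed Rnaseh2b and VavCre-. Both groups therefore carry the floxed alleles and differ in Vav-Cre, a recombinase active throughout blood formation, so that Rnaseh2b is deleted in the ancestors of the GMP and in other blood cells too. The animals' age is not among the labels used here. The mice are called knockouts 5 to 8 and controls 1 to 4, after the replicate numbers of the labels. Rnaseh2b encodes a subunit of RNase H2, which cuts out single ribonucleotides left in DNA and the RNA of RNA-DNA hybrids.

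Broken DNA is mended by several routes. Homologous recombination copies the lost stretch from the sister chromatid: the ends are trimmed to single strands, BRCA1, PALB2 and BRCA2 ready them for strand exchange, and further proteins help carry it out. The Fanconi pathway uncouples crosslinked strands at stalled replication forks, end joining ligates the ends directly, and mismatch repair corrects copying errors. Ribonucleotides that stay in DNA without RNase H2 are known to give nicks and breaks in replication, and in dividing cells many recombination and Fanconi genes are transcribed most in S and G2 phase.

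Levels are given as normalised counts, which are gene counts divided by 1 factor per library. The genotype held in each library. Rnaseh2b had 118, 128, 75.9 and 95.3 in knockouts 5 to 8, against 2288, 2470.0, 1249 and 1207 in controls 1 to 4, which left knockouts at 5.77 ± 1.29% of the controls' mean (SD, n = 4). Reads on genes were 34976865 to 38917550 in knockouts and 28352720 to 45655518 in controls. All 10 GMP markers, among them Kit, Cd34, Mpo and Elane, were expressed, and their summed level was 1136520 to 1192132 normalised counts in knockouts and 1254844 to 1356848 in controls. Mpo made up most of this sum, at 685130 to 780350 in knockouts and 753421 to 826988 in controls. The markers did not all go the same way: Cd34 ranged over 11388 to 16094 in knockouts, against 10183 to 12847 in controls. The T cell gene Cd3d and the B cell gene Cd79a stood at no more than 3.8 and 9.0 normalised counts in any knockout and 2.8 and 6.2 in any control. On the second principal component (17.7% of the variance) knockout 8 (-49.7) and control 1 (34.6) lay apart from the other 6 libraries (-13.96 to 10.95), so results that turn on them are given without them too. On the first component (26.0%), which parted the genotypes, each was the library of its group nearest the other group. Knockout 8 stood at 16.6 (other knockouts 28.0 to 32.4) and control 1 at -10.2 (other controls -33.4 to -28.7). Leaving out both therefore also removes the libraries most like the other genotype on that component. Without knockout 8 every knockout has a lower sample number than every control, and genotype and sample order then cannot be told apart.

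None of the 31 repair genes passed the test for a difference between knockout and control GMP. Limma, fitted over 16688 genes with a mean of at least 10 normalised counts, called 0 of the 31 at a Benjamini-Hochberg adjusted p below 0.05, where it called 1.4% of all genes tested (1.19% higher and 0.21% lower in knockouts). The lowest adjusted p among the 31 was 0.227, for Rad51ap1. At an unadjusted limma p below 0.05 there were 2 of the 31, Rad51ap1 and Polq, both lower in knockouts, where 13.2% of all genes tested passed that level (6.44% lower). EdgeR and DESeq2, run on the whole reads recovered from the table, also called 0 of the 31. Counts of these genes in single libraries ran from 94 reads (Xrcc5 in knockout 5) to 13405 reads.

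The differences were small on the fold scale. On log2(normalised count + 1), 22 of the 31 fold changes were below 0 and 9 above, with a median of -0.097, beside -0.013 for all genes tested, of which 52.8% were below 0. With equal totals or with quantile normalisation, 19 of the 31 were below 0. The 95% interval of the difference lay within 1.5-fold in either direction for 29 of the 31, the exceptions being Fancb and Xrcc5. It lay within 1.25-fold for 15, among them Brca1, Bard1, Exo1, Blm, Fancd2 and Msh6. Knockouts and controls did not overlap for 2 of the 31, Rad51c and Rad51ap1, both lower in knockouts, where 7.41% of all genes tested did not overlap (3.42% with knockouts lower and 3.99% with knockouts higher). With each library scaled to an equal total, or with quantile normalisation, none of the 31 had groups that did not overlap.

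**Figure D1:**
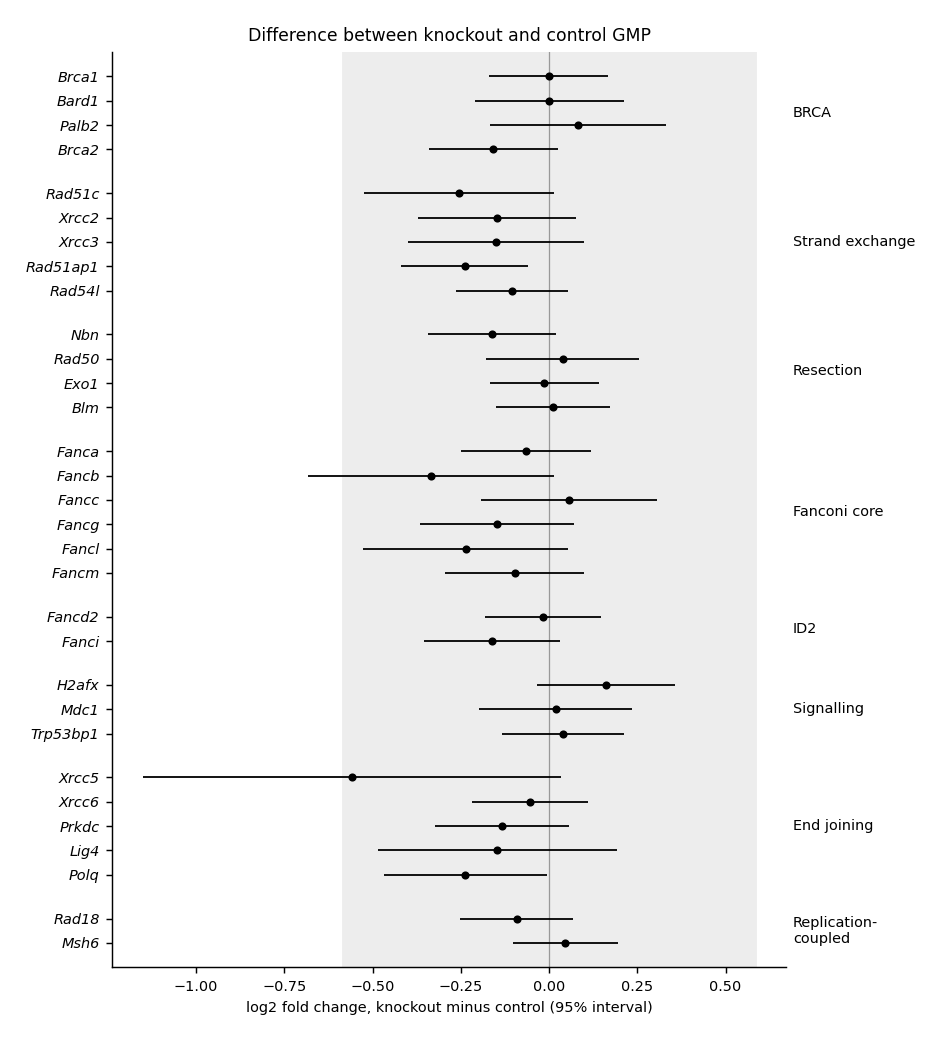
Log2 fold change of each repair gene, knockout minus control, with its 95% interval from limma (4 mice per group), ordered by role; the grey band spans 1.5-fold in either direction. The intervals of 29 of the 31 genes lie inside the band, and those of Rad51ap1 and Polq leave out 0.

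Of the 4 genes around BRCA1 and BRCA2, none passed the test. Brca1, a ubiquitin ligase subunit that promotes end trimming and recombination, had 2744, 2855, 2768 and 2425 in knockouts 5 to 8, against 2881, 2615, 2506 and 2789.8 in controls 1 to 4. The 4 knockouts and the 4 controls covered nearly the same range, and the fold was 1.00 with a 95% interval from 0.89 to 1.12. Its partner Bard1 ranged over 1246 to 1334 in knockouts, against 1120.3 to 1518 in controls (fold interval 0.865 to 1.16). Palb2, which bridges BRCA1 and BRCA2, had 689, 735, 855 and 657 in knockouts 5 to 8, against 611, 672, 807 and 683 in controls 1 to 4, and its groups overlapped. Brca2, which readies single-stranded DNA for strand exchange, ranged over 1732 to 2132 in knockouts, against 2084 to 2384 in controls, with a log2 fold change of -0.16 ± 0.085 (SE) (adjusted p = 0.457). Of these 4 genes 2 had a log2 fold change below 0, and Brca1 was above 0 instead with equal totals, quantile normalisation, edgeR or DESeq2. Without control 1 and knockout 8, Brca1 had a log2 fold change of 0.08 (adjusted p = 0.535).

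The 5 genes that assist strand exchange were all below the controls in mean, although none passed the test. Rad51ap1, which helps the strands pair, had 1955, 1737, 1675 and 1989 in knockouts 5 to 8, against 1997, 2201, 2319.8 and 2152 in controls 1 to 4. Every knockout was below every control, but knockout 8 and control 1 lay close together. The log2 fold change was -0.24 ± 0.0839 (SE), with a 95% interval from -0.42 to -0.059 (adjusted p by limma = 0.227). It passed with array weights, which weight libraries by their spread (-0.28, adjusted p by limma = 0.0408), and without control 1 and knockout 8 (-0.32, adjusted p by limma = 0.0313). Many more genes passed in these settings than in the main test. With array weights 547 of 16688 genes passed higher and 454 lower, and without both libraries 651 of 16710 passed higher and 789 lower. Leaving out 1 library at a time gave -0.28 to -0.20 and adjusted p from 0.0857 to 0.507.

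Rad51c, which is needed for strand exchange, had 294, 338, 308 and 276 in knockouts 5 to 8, against 350.4, 349.5, 345 and 406 in controls 1 to 4. Again each knockout was below each control, with a log2 fold change of -0.26 ± 0.125 (SE) and a 95% interval from -0.52 to 0.013 (adjusted p by limma = 0.405). Xrcc2 and Xrcc3, of the same family, ranged over 720.2 to 957 in knockouts, against 859 to 961 in controls (Xrcc2), and over 537 to 747 in knockouts, against 696 to 809.5 in controls (Xrcc3), and both overlapped. Rad54l, a motor protein that remodels DNA in strand exchange, had 2939, 2972, 2959.7 and 2946 in knockouts 5 to 8, against 3491, 3278, 2891 and 3084 in controls 1 to 4. Its knockouts lay close together, and control 3 lay below all of them. The median log2 fold change of these 5 genes was -0.15.

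The stretch of 250 bases before the start is given for the 2 genes whose groups did not overlap, from RefSeq (GRCm38.p6), on the gene's strand and 5′ to 3′. Capitals mark CCAAT boxes (CCAAT or its reverse complement ATTGG) and the start of an E2F word that runs past the window in Rad51c. Rad51ap1 is read from chr6:126939588-126939837 and Rad51c from chr11:87404955-87405204, both on the minus strand.
Rad51ap1: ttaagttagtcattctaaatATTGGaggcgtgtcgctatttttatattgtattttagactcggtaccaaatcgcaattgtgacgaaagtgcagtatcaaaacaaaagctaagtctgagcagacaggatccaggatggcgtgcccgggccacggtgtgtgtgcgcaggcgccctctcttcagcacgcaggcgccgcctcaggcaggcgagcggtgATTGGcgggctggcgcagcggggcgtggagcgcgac
Rad51c: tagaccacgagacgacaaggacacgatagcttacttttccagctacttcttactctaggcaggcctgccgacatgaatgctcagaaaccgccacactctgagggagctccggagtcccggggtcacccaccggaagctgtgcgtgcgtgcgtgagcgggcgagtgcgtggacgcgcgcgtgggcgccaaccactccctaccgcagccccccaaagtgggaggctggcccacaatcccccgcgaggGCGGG

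The promoters were searched for the words bound by E2F factors, which drive genes of S phase, and for 2 other words. For 24 of the 31 genes a promoter, from 250 bases before the start to 50 after, was in the RefSeq table. The RefSeq start nearest to the deposited gene start was used, at any distance. It lay 65533 bases away for Fancc, 28534 for Xrcc6 and 949 for Fancl, and at most 409 for the others. The E2F words searched were TTTCCCGC, TTTCGCGC, TTTGCCGC and TTTGGCGC on both strands, none of which holds another motif searched. They were in 7 of the 24 (29.2%), against 427 of 9958 promoters of genes tested (4.3%). CCAAT was in 14 of the 24 (58.3%), against 39.4%, and the cell cycle homology word TTTGAA in 2 (8.3%), against 12.1%. Such a match is a run of letters and not a shown binding site. The 7 genes with an E2F word had log2 fold changes from -0.26 (Rad51c) to 0.05 (Msh6), so genes with the word stood on both sides of 0. Each word is shown in capitals with 11 bases on either side, in the gene's direction; GCGGGAAA is the reverse complement of TTTCCCGC.
Bard1 (chr1:71103163-71103192, minus strand): ccgccgctcagTTTCCCGCtcaggaagttt
Brca2 (chr5:150522442-150522471, plus strand): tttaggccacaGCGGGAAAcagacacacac
Rad51c (chr11:87404941-87404970, minus strand): cccccgcgaggGCGGGAAAagcaaggggtc
Fancg (chr4:43010335-43010364, minus strand): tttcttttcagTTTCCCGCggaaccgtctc
Mdc1 (chr17:35841471-35841500, plus strand): tcttcagcctgTTTCCCGCcggtagccgca
Xrcc6 (chr15:82016312-82016341, plus strand): agggggtggaaGCGGGAAAtgcgagtgggc
Msh6 (chr17:87975054-87975083, plus strand): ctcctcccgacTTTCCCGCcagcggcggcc

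Neighbouring genes were looked up as well. The start of another protein-coding gene lay within 1000 bases upstream and pointed the other way for 10 of the 31 genes (32.3%), against 1292 of 11904 protein-coding genes tested (10.9%), by GENCODE M21. Examples are Brca1 with Nbr1 (194 bases), Palb2 with Dctn5 (56 bases), Fancd2 with Emc3 (30 bases), Lig4 with Abhd13 (21 bases) and Prkdc with Mcm4 (466 bases).

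Of the genes that trim ends and process strands, 2 of 4 had a log2 fold change below 0. Rad50, the arm of the MRE11-RAD50-NBN complex that holds the ends, had 3504, 4146, 4364 and 3553 in knockouts 5 to 8, against 4432, 3734, 3236 and 3774 in controls 1 to 4. Its groups overlapped widely. Nbn, through which that complex recruits the ATM kinase, ranged over 1293 to 1515 in knockouts, against 1463 to 1708 in controls, with a log2 fold change of -0.16 ± 0.0845 (SE) (adjusted p by limma = 0.44). Per kilobase, the ratio of Rad50 to Nbn was 1.29 ± 0.098 in knockouts and 1.13 ± 0.133 in controls (SD, n = 4 each), and its values overlapped. Exo1, the exonuclease of long-range trimming, had 1945, 1915, 2045 and 2053 in knockouts 5 to 8, against 2115, 1986, 1915 and 2016 in controls 1 to 4. The helicase gene Blm, whose product dissolves joined strands, ranged over 2264 to 2733 in knockouts, against 2386 to 2491 in controls. Both genes had intervals within 1.25-fold, and Exo1 lay just below 0 on the log2 scale, or just above it with equal totals or quantile normalisation.

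The Fanconi core complex is the ubiquitin ligase that marks the FANCD2-FANCI pair at a crosslink. Of its 6 genes here, 5 had a log2 fold change below 0, with a median of -0.12, and none passed. Fancg, the most abundant of them per kilobase, had 1488, 1219, 1362 and 1056 in knockouts 5 to 8, against 1405, 1438, 1378 and 1406 in controls 1 to 4. The controls lay close together, while knockout 8 was the lowest and knockout 5 the highest of the 8 libraries. Fancc, the least abundant per kilobase, had 739, 588, 705 and 583 in knockouts 5 to 8, against 578, 719.8, 602 and 609.7 in controls 1 to 4, and its groups overlapped. Fancl, which carries the ligase activity, ranged over 454 to 584 in knockouts, against 461 to 687 in controls. Fanca and Fancm, a scaffold subunit and the helicase that anchors the complex to DNA, ranged over 1549.5 to 1774 in knockouts, against 1599 to 1922 in controls (Fanca), and over 1169.5 to 1461 in knockouts, against 1286 to 1502 in controls (Fancm). All of these overlapped between groups.

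Fancb, an X-linked subunit, had the fold change farthest from 1 among the 8 Fanconi genes. It had 408, 268, 316 and 410.0 in knockouts 5 to 8, against 399, 366, 507 and 483 in controls 1 to 4 (the full values are given because the interval was wide, a choice made after they were seen). Knockouts 6 and 7 were below every control, and knockouts 5 and 8 were within the controls. The log2 fold change was -0.33 ± 0.162 (SE), with a 95% interval from -0.68 to 0.014 (adjusted p by limma = 0.4).

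Of the marked pair itself, Fancd2 was close to even, and Fanci had a log2 fold change of -0.16 (fold interval 0.782 to 1.02). Fancd2 had 2140.0, 2041, 2220.2 and 1946 in knockouts 5 to 8, against 2221, 2023, 2001 and 2196 in controls 1 to 4, with a fold interval from 0.882 to 1.11. Fanci had 1428, 1425, 1684 and 1781 in knockouts 5 to 8, against 1742, 1801, 1675 and 1815 in controls 1 to 4, so that knockouts 5 and 6 were below every control and knockouts 7 and 8 were not (adjusted p by limma = 0.477). Per kilobase the ratio of Fanci to Fancd2 was 1.04 ± 0.152 in knockouts and 1.15 ± 0.060 in controls (SD, n = 4 each), with overlap.

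**Figure D2:**
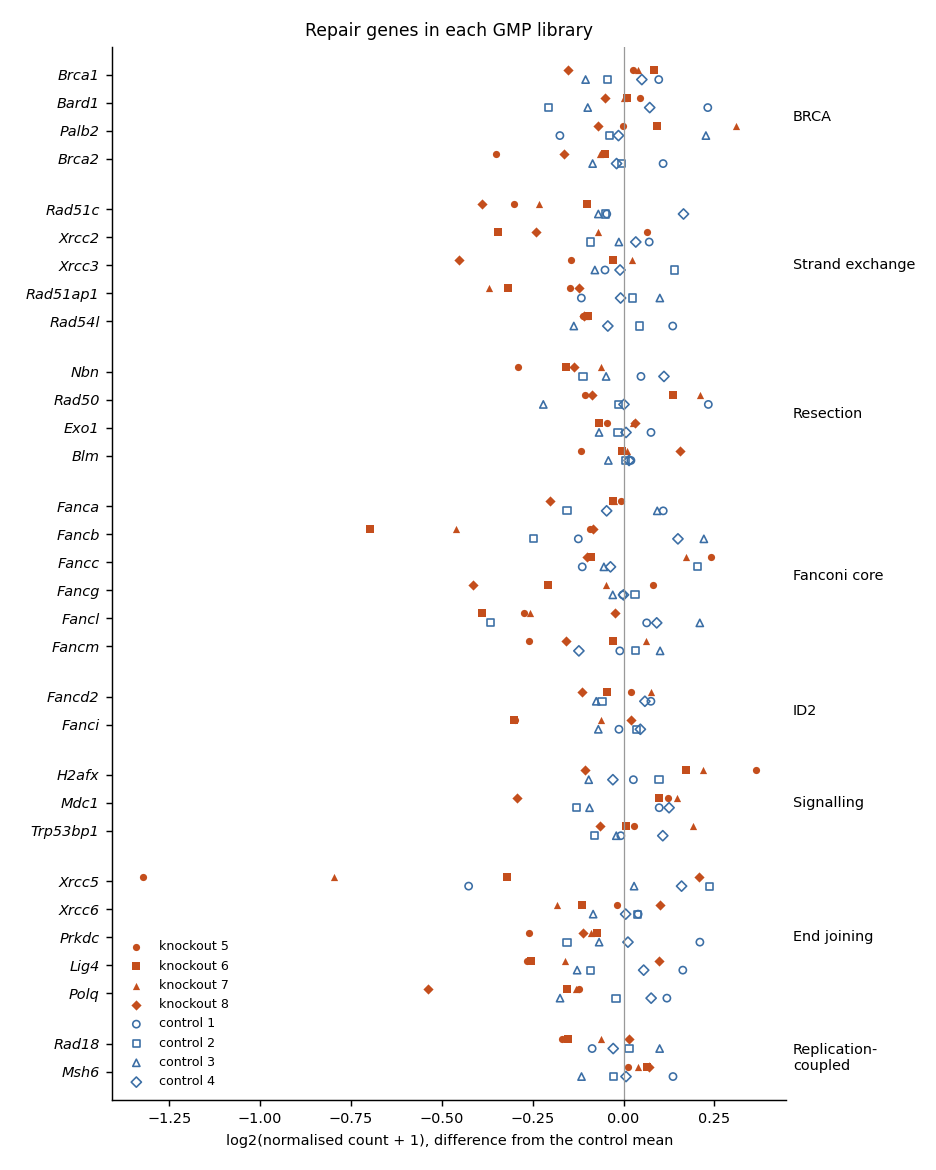
Each repair gene in each library, as log2(normalised count + 1) minus the control mean; filled symbols are knockouts 5 to 8 and open symbols controls 1 to 4, each an individual mouse. Knockouts and controls intermingle for all genes other than Rad51c and Rad51ap1, and Xrcc5 has the widest spread.

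The genes of break signalling on chromatin were the one group in which all members, 3 of 3, had a log2 fold change above 0, none of them past the test. Of 15 further break signalling genes, 11 were below 0 and 4 above, with a median of -0.074. H2afx encodes the histone variant that is phosphorylated around a break, and had 12068, 10572, 10906 and 8717 in knockouts 5 to 8, against 9559, 10038, 8778 and 9192 in controls 1 to 4. Knockouts 5, 6 and 7 were above every control, and knockout 8 was below every control. The log2 fold change was 0.16 ± 0.091 (SE), with a 95% interval from -0.033 to 0.36 (adjusted p by limma = 0.48). Without knockout 8 it was 0.25 and did not pass (adjusted p by limma = 0.0769), and without knockout 8 and control 1 it was 0.26 and passed (adjusted p by limma = 0.0464). In that last setting 651 of 16710 genes tested passed higher and 789 lower.

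Mdc1, which binds the phosphorylated histone, ranged over 3719.7 to 5039.9 in knockouts, against 4162 to 4968 in controls. Trp53bp1, whose product 53BP1 shields ends from trimming, had 2010.3, 1979.7, 2254 and 1887 in knockouts 5 to 8, against 1962, 1865, 1945 and 2126 in controls 1 to 4. Both overlapped, with log2 fold changes of 0.019 ± 0.101 (SE) for Mdc1 and 0.041 ± 0.0804 (SE) for Trp53bp1.

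All 5 end joining genes had a log2 fold change below 0, and none passed. Ku, the ring that first grips an end, is made of the products of Xrcc6 (Ku70) and Xrcc5 (Ku80). Xrcc6 had 3087, 2886, 2755 and 3348 in knockouts 5 to 8, against 3214, 3208, 2949.5 and 3138 in controls 1 to 4, with a fold interval from 0.859 to 1.08. Xrcc5 was far scarcer, with 84.6, 170.3, 122 and 246 in knockouts 5 to 8, against 158, 251, 217 and 238 in controls 1 to 4 (given in full because of its spread, a choice made after the values were seen). Knockouts 5 and 7 were below every control, knockout 6 lay above control 1 only, and knockout 8 was above 3 of the 4 controls.

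The log2 fold change of Xrcc5 was -0.56 ± 0.276 (SE), with a 95% interval from -1.15 to 0.035 (adjusted p by limma = 0.409). It was -0.96 and passed without control 1 and knockout 8 (adjusted p by limma = 0.0250), where 789 of 16710 genes tested passed lower and 651 higher. Leaving out 1 library at a time gave -0.81 to -0.30 with adjusted p by limma from 0.0789 to 0.687. Per kilobase, Xrcc6 exceeded Xrcc5 by 20.8, 9.65, 12.8 and 7.74 times in knockouts 5 to 8, against 11.6, 7.27, 7.73 and 7.51 times in controls 1 to 4. The 4 eosinophil markers (Epx, Prg2, Ear1 and Ear2) summed to 4318 to 20344 normalised counts in knockouts, the highest in knockout 8, and to 16161 to 29473 in controls. The 4 mast cell and basophil markers (Mcpt8, Cpa3, Ms4a2 and Gata2) summed to 4246 to 12662 in knockouts and 6304 to 8333 in controls. Their median log2 difference from the control mean was -0.82, -0.285, -0.736 and 0.593 in knockouts 5 to 8, against -0.269, 0.17, 0.112 and 0.012 in controls 1 to 4. The knockouts stood in the same order as for Xrcc5, and the controls did not. For the eosinophil markers that median was -1.989, -1.508, -2.425 and -0.636 in knockouts 5 to 8, another order than for Xrcc5. All 8 of these markers had reads in each library, although Ear2 stood at only 7.9 normalised counts in knockout 7. The sum of 4 megakaryocyte markers was 946 to 2203 in knockouts and 1019 to 1369.7 in controls. Nearly all of it was Itga2b, with 911, 1243, 927 and 2144 in knockouts 5 to 8, against 1210, 1311, 1197 and 974 in controls 1 to 4. Its knockouts too stood in the same order as for Xrcc5, and its controls did not. These orders were compared after the values were seen. The sum of 4 erythroid markers was 62.3 to 170.3 in knockouts and 27.4 to 50.1 in controls. Both sums were highest in knockout 8. Pf4, a platelet gene, was at 0 in knockout 6 and control 1, and the globin genes Hba-a1 and Hbb-bt were at 0 in controls 1 and 3. The part of any of these cell types in the Xrcc5 values was not tested. In bulk RNA, fewer cells of a type and less RNA per cell cannot be told apart.

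Prkdc, the kinase that Ku recruits, ranged over 1855 to 2108 in knockouts, against 1993 to 2568 in controls. Lig4, the ligase of the final step, was the least abundant of the 31 genes per kilobase and had 162, 164, 174 and 209 in knockouts 5 to 8, against 219, 183, 179 and 203 in controls 1 to 4. The groups of both overlapped. Polq, the polymerase of the alternative route that joins ends through short matches, had 1384, 1354, 1377 and 1038 in knockouts 5 to 8, against 1637, 1486, 1335 and 1589 in controls 1 to 4. Knockout 8 was far below the other knockouts, and control 3 lay below knockouts 5, 6 and 7. The log2 fold change was -0.24 ± 0.107 (SE), with a 95% interval from -0.47 to -0.0067 (adjusted p by limma = 0.362).

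The remaining genes act behind the replication fork. Rad18, the ubiquitin ligase that marks PCNA for lesion bypass, had 2599, 2625, 2798 and 2954 in knockouts 5 to 8, against 2751, 2952, 3129 and 2864 in controls 1 to 4. Msh6, which recognises base mismatches, had 5314, 5511, 5422 and 5538 in knockouts 5 to 8, against 5795, 5173, 4867 and 5298 in controls 1 to 4. The groups of both overlapped, with fold intervals from 0.84 to 1.05 for Rad18 and from 0.932 to 1.14 for Msh6.

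Levels per kilobase of exon spanned a wide range in both groups. H2afx was highest, at 7634 ± 1004 in knockouts and 6786 ± 387 in controls (SD, n = 4 each), followed by Msh6 at 1253 ± 23.3 in knockouts and 1216 ± 88.8 in controls, and Rad50 at 724 ± 79.8 in knockouts and 706 ± 91.4 in controls. Lig4 was lowest, at 34.1 ± 4.18 in knockouts and 37.7 ± 3.56 in controls. Xrcc5 stood at 61.2 ± 27.4 in knockouts and 84.9 ± 16.1 in controls, Rad51c at 69.3 ± 5.94 in knockouts and 82.7 ± 6.59 in controls, and Fancc at 78.2 ± 9.57 in knockouts and 75.1 ± 7.55 in controls. These last 3 did not differ from each other beyond their spread in controls. Some levels are uncertain because exons overlap those of an expressed gene on the opposite strand and whether reads were counted by strand is not stated in the sources used. The share of exon bases is 15.95% for Fanci (with Polg), 15.4% for Rad54l (Lrrc41), 15.0% for Trp53bp1 (Tubgcp4), 13.7% for Fancl (Vrk2), 10.5% for Fanca (Zfp276), 10.2% for H2afx (the miRNA gene Gm44335) and 7.69% for Xrcc6 (Desi1).

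**Figure D3:**
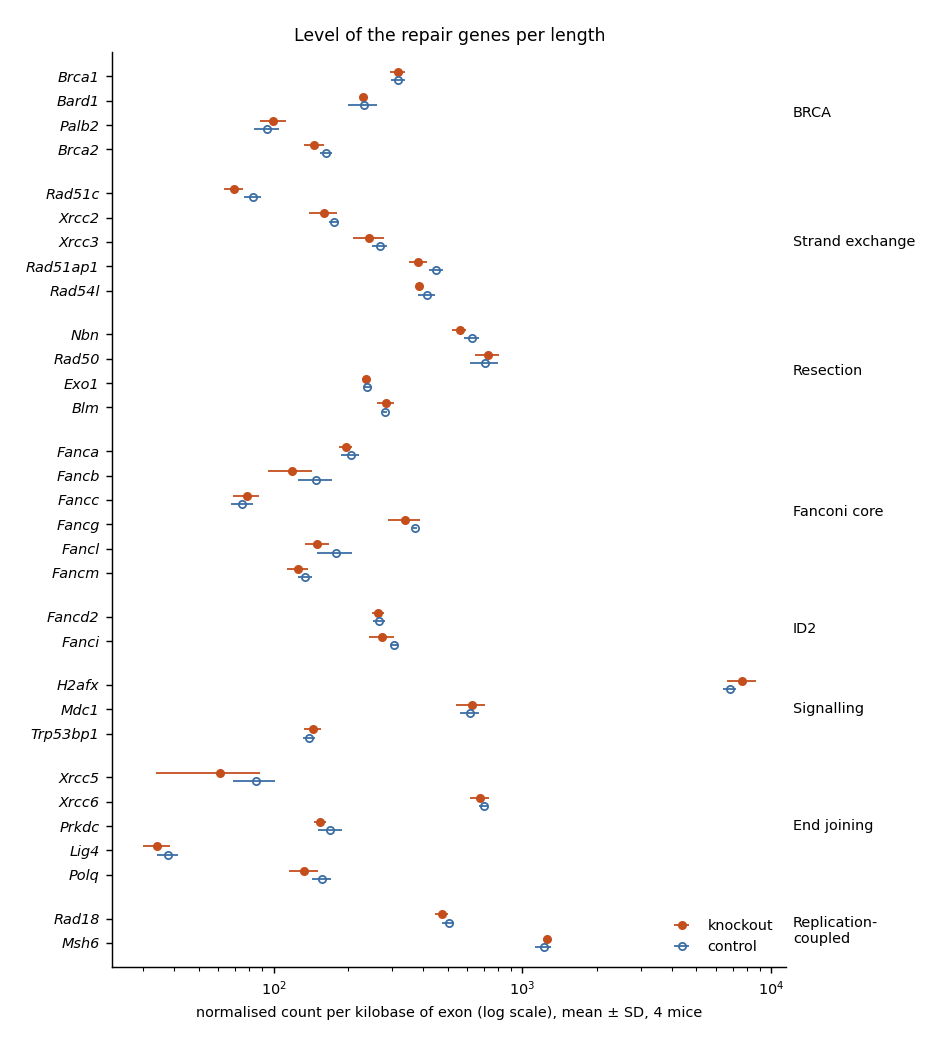
Normalised count per kilobase of exon for each repair gene, on a log axis; filled points are knockouts and open points controls, as mean and SD of 4 mice. H2afx stands highest and Lig4 lowest in both groups, and the 2 groups lie close together beside the differences between genes.

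The coefficient of variation of the 31 genes had a median of 9.3% in knockouts (0.50 to 44.8%) and 6.91% in controls (1.74 to 19.0%). Knockout 8 was the highest knockout for 11 genes and the lowest for 13. It was lowest for Brca1, Bard1, Palb2, H2afx, Mdc1 and Trp53bp1, and highest for Xrcc5, Xrcc6, Lig4, Rad18 and Msh6. Control 1 was the highest control for 15 of the 31 and control 3 the lowest for 16. The median difference of the 31 genes from the control mean was -0.106, -0.074, -0.047 and -0.106 in knockouts 5 to 8, against 0.048, -0.021, -0.067 and 0.012 in controls 1 to 4, on the log2 scale. Knockouts 5, 6 and 8 were below all controls and knockout 7 was not. Without control 1 and knockout 8, 3 of the 31 genes passed (Rad51ap1 and Xrcc5 lower, H2afx higher), where 1440 of all 16710 genes tested did.

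Further genes of the same pathways did not pass either. None of 35 further homologous recombination genes, 15 Fanconi genes, 15 break signalling genes, 13 end joining genes or 8 mismatch repair genes passed the limma test over all genes. Of these 86, 11 had an unadjusted limma p below 0.05 (13.2% of all genes tested did), and 59 had a log2 fold change below 0, with a median of -0.070. Among the 11, Rad52 (log2 fold change 0.25), Eme2 (0.38) and Fance (0.22) were higher in knockouts, and the rest were lower. The edgeR and DESeq2 tests called 0 of the 86. The gene of lowest p was Smc6 for recombination, Cenps for Fanconi, Uimc1 for signalling and Pcna for mismatch repair.

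Smc6, a subunit of the SMC5-SMC6 complex, had 4827, 5216, 5409.6 and 4904 in knockouts 5 to 8, against 6638, 5804, 5619 and 5541 in controls 1 to 4. Every knockout was below every control, with a log2 fold change of -0.21 ± 0.0755 (SE) and an adjusted p of 0.234 by limma. Uimc1, the RAP80 protein that brings a BRCA1 complex to ubiquitin at breaks, had 1408, 1464, 1535 and 1326 in knockouts 5 to 8, against 1646, 1631, 1788 and 1712 in controls 1 to 4. It too was lower in each knockout, with a log2 fold change of -0.24 ± 0.0791 (SE) and an adjusted p of 0.191 by limma, and 9 of the 86 genes had groups that did not overlap, all with knockouts lower, against 3.42% of all genes in that direction. Cenps, which helps FANCM hold DNA, ranged over 800.0 to 964 in knockouts, against 988 to 1068 in controls and did not overlap. Uimc1 shares 8.18% of its exon bases with the pseudogene Gm6344 on the opposite strand.

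Pcna, the sliding clamp of replication and mismatch repair, had 8815, 8587, 8114 and 10645 in knockouts 5 to 8, against 9762, 10443, 11418 and 10642 in controls 1 to 4. Knockouts 5 to 7 were below every control, and knockout 8 was above 3 of the 4, with a log2 fold change of -0.23 ± 0.0862 (SE) and an adjusted p of 0.257 by limma. Without knockout 8 Pcna passed, where 342 of 16671 genes tested passed higher and 227 lower.

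S-phase genes, read beside the repair genes, did not pass the test. Of 39 S-phase genes, 36 (92.3%) had a log2 fold change below 0, against 52.8% of all genes tested, and none passed, with a median of -0.088. At an unadjusted limma p below 0.05 there were 11 of the 39 (28.2%), against 13.2% of all genes, and 4 had groups that did not overlap, all with knockouts lower, against 3.42% of all genes in that direction. Their median difference from the control mean was -0.185, -0.073, -0.139 and -0.020 in knockouts 5 to 8, against 0.062, -0.026, -0.038 and -0.003 in controls 1 to 4. Knockouts 5 to 7 were below all controls, and knockout 8 was within their range. Tyms, the thymidylate synthase gene, had the lowest p, with 3148, 2796, 2625 and 3083 in knockouts 5 to 8, against 3214, 3311, 3923 and 4062 in controls 1 to 4, with a log2 fold change of -0.31 ± 0.093 (SE) and an adjusted p of 0.142 by limma. The G2/M genes had a median of 0.063, with 16 of 20 above 0 and none past the test, and 1 of the 20 (5.0%) had an unadjusted limma p below 0.05. Ccnb1, the cyclin of entry into mitosis, had the lowest p among them, with 2338, 2018, 2288 and 2326 in knockouts 5 to 8, against 1583, 1859.9, 2146 and 2028 in controls 1 to 4, with a log2 fold change of 0.24 ± 0.0976 (SE) and an adjusted p of 0.294 by limma. The part of cell cycle phase in the repair gene values was not tested.

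**Figure D4:**
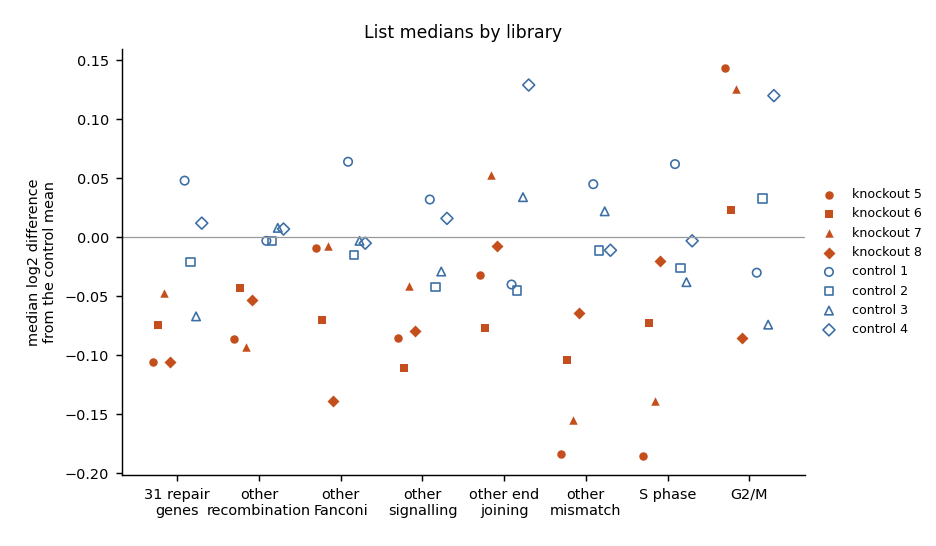
Median log2 difference from the control mean for the 31 repair genes, 5 lists of further repair genes, S-phase genes and G2/M genes, 1 symbol per library (filled, knockouts 5 to 8; open, controls 1 to 4). Medians of the 31 repair genes lie between -0.106 and -0.047 in knockouts and between -0.067 and 0.048 in controls.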

How the data were processed

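Paired-end, strand-specific RNA-seq was done on polyadenylated RNA of GMP from 8 mice, per the labels' protocols. GSNAP, featureCounts 2.0.1, DESeq2 1.30.1 and the build mm10 are named in the submitters' processing notes. Each signal value in the deposited table is a normalised gene count: the authors divided the count by a factor of that library, and 1 decimal was kept. Of the values above 0, 99.997% were whole multiples of 1 read within 0.051, which gave the depth. Gene positions match GENCODE M21, and the deposited gene lengths, in bases, are its merged exon lengths for 98.8% of genes.

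The main test was limma 3.58.1 (R 4.3.3) with an intensity trend, fitted to log2 values of the deposited counts after adding 1, and adjusted by Benjamini-Hochberg over all 16688 genes with a mean of at least 10; all 31 members passed that filter. Such fold changes understate the change of low genes. P-values reflect the spread between mice, 4 per group. Any 2 mice of a group differed beyond counting error (chi-square over its degrees of freedom, 13.98 to 45.6), so each counted as 1 sample. edgeR 4.0.16 and DESeq2 1.42.0 were run on the recovered reads as alternatives and called 241 genes and 558 genes, where limma called 234, beside other pseudocounts, filters, scalings, weights and left-out libraries. All 31 members may be named. Values in every library were set for members past the test, without overlap, or highest or lowest per kilobase in their role group; for further lists, for the gene of lowest p. The members and lists were chosen with earlier results of these data known. A few items are not reported here.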

Additional observations from a re-analysis of the deposited data

Results flagged for a closer look

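Among 62 groups of 4 mice (31 genes in each genotype), 4 held a library far from the other 3 of its group by Dixon's gap test at 95%; chance flags about 1 group in 20. Knockout 8 was the lowest knockout by such a gap in 3 genes: Polq at 1037.5 normalised counts (the other knockouts stood at 1353.9 to 1384), Mdc1 at 3719.7 (4872 to 5039.9) and Fanca at 1549.5 (1747 to 1774.5). For Rad51c, control 4 stood above the other controls, at 405.8 normalised counts (the others had 345 to 350.4).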

How the results depend on the processing

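None of the 31 genes passed in 17 of the 19 alternatives. With array weights 1 passed, and without control 1 and knockout 8 together 3 passed. The number of repair genes whose groups did not overlap was 0 with equal totals, 0 with quantile normalisation, 7 without control 1 and knockout 8, and 2 to 5 with 1 library left out. Leaving out libraries can only keep or raise such a number, and the share over all genes was not counted in these settings. The median log2 fold change of the 31 genes moved by less than the spread between replicates in all 19 alternatives (-0.12 to -0.061). Without 1 library, 0 repair genes passed, and the median was -0.12 to -0.063. Over all genes, 234 changed; 104 did with no intensity trend, 1001 with array weights, 558 with DESeq2, 1440 without control 1 and knockout 8, and 135 to 569 without 1 library. Of the 86 further repair genes, 2 passed with array weights, 4 without control 1 and knockout 8, and 0 to 1 without 1 library; the causes were not tested.

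Genes near a fold of 1 changed sign, none past the threshold. Brca1 had log2 fold changes of 0.035 at equal totals, 0.028 with array weights, 0.021 with quantile normalisation, 0.011 with edgeR, 0.0044 with DESeq2 and 0.082 without control 1 and knockout 8. Fancd2 had 0.019 at equal totals, 0.012 with quantile normalisation and 0.042 without both libraries. Exo1 had 0.023 at equal totals and 0.010 with quantile normalisation, Bard1 -0.0049 with DESeq2, Blm -0.015 with array weights and -0.031 without both libraries, and Fanca 0.017 without both. With 1 library left out, signs also changed for Brca1 (-0.035 to 0.050), Bard1 (-0.068 to 0.078), Fancd2 (-0.047 to 0.017), Exo1 (-0.036 to 0.012), Blm (-0.038 to 0.053), Rad50 (-0.034 to 0.12), Fancc (-0.0050 to 0.12), Mdc1 (-0.025 to 0.12) and Trp53bp1 (-0.010 to 0.077). No paired analysis was possible because knockouts (5 to 8) and controls (1 to 4) have no replicate number in common. Each repair gene had at least 94 reads in each library, and 4 mice per group limit the precision.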
